A study of Rattus norvegicus with 16 samples.

Results

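The miR-29 family on this rat array comprised 3 microRNAs (miRNAs), rno-miR-29a, rno-miR-29b and rno-miR-29c, out of 677 miRNAs measured. They were taken by name, as all non-control spots that the array annotation assigns to these 3 miRNAs, which gave 6 of the 1644 probes. Abundance was measured in 2 hindlimb muscles of male Fischer 344 rats bought at 1 month of age and kept under standard conditions to the age of sampling. Young rats were 6 to 7 months old and old rats 25 to 28 months old, and from both ages the extensor digitorum longus (EDL, a predominantly fast-twitch muscle) and the soleus (a predominantly slow-twitch muscle) were sampled. The 16 single-colour (Cy3) arrays formed 4 groups of 4: young EDL, old EDL, young soleus and old soleus, with no treatment or genetic change in any group. Arrays are named here by the numbers of the sample labels, 7 to 10 in young and 1 to 4 in old rats.

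MiRNAs of about 22 bases guide a silencing complex to messenger RNAs that pair with their seed, bases 2 to 8 from the 5′ end, and lower the stability or translation of those messengers. MiR-29 miRNAs are best known as repressors of extracellular matrix genes, among them fibrillar and basement membrane collagens and elastin, and their loss accompanies fibrosis in heart, kidney and other organs of mice and humans. In skeletal muscle they have been linked to myogenic differentiation and to muscle wasting and ageing in mice. No messenger RNA was measured on these arrays, so no collagen or other target is described.

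The mature sequences are shown because the 3 members share their seed and differ in a few bases elsewhere. They come from RefSeq annotation of the rat assembly GRCr8, in which all 7 array names of the family (3 members and 4 passenger strands) were found at 4 loci. Capitals mark the seed.
rno-miR-29a: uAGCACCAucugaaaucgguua
rno-miR-29b: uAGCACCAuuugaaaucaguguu
rno-miR-29c: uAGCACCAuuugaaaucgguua

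The seed AGCACCA pairs with UGGUGCU in a messenger RNA, and of 693 mature rat miRNA names in the RefSeq table it occurred in these 3 alone. Counted from the 5′ end, with the first-named member's base first, miR-29a and miR-29c differ by C10U, and miR-29c and miR-29b by G18A, U21G and A22U. MiR-29b is also longer, with 23 bases against 22. Between miR-29a and miR-29b all 4 of these substitutions separate the first 22 bases. A difference of 1 base between miR-29a and miR-29c means that a probe for either could also bind the other, which was not tested, and their separate values are uncertain to that extent.

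The members come from 2 clusters. MiR-29a lies at chr4:60617968-60617989 on the minus strand (Mir29a), with 1 of the copies of miR-29b at chr4:60618342-60618364 on the same strand (Mir29b1), and 291 bases separate the hairpins. The other copy of miR-29b lies at chr13:109098882-109098904 on the plus strand (Mir29b2), 447 bases between hairpins from miR-29c at chr13:109099412-109099433 (Mir29c). Because the mature product of Mir29b1 and Mir29b2 is the same, the miR-29b signal sums whatever both clusters made. The precursor hairpins show how the members sit in their loci, with the mature member in capitals and the passenger strand in the 5′ part.
Mir29a: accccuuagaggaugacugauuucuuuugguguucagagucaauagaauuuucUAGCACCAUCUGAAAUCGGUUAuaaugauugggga
Mir29b1: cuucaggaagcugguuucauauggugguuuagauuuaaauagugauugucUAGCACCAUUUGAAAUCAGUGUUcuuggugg
Mir29b2: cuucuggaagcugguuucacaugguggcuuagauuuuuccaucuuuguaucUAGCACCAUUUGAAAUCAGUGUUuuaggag
Mir29c: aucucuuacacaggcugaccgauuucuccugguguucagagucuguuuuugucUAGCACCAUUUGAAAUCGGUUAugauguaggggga

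Levels are given as log2 of the processed spot intensity divided by the array's 75th percentile over 95 probes detected on each of the 16 arrays, so 0 is a signal at that percentile. A level of one miRNA is not set against that of another, since each has its own probes. Soleus arrays were dimmer: the percentile lay between 290 and 681 intensity units there and between 589 and 1864 on the EDL arrays, and 58 to 85 miRNAs were detected (well above background) against 83 to 138. The EDL arrays shared 1 slide, with young and old in separate columns, while young and old soleus each had a slide of their own. In EDL, slide column and age cannot be told apart, and wherever a soleus group is compared, its slide cannot be told apart from its age or muscle. Feature Extraction's check of the labelling spike-in was out of range on young soleus 7 and 8 and on all 4 old soleus arrays. The labels do not say that arrays are separate animals. P-values therefore set group differences only against the spread of these samples, part or all of which may be technical. With 4 arrays per group the precision is limited.

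Both probes of each member, 10 spots apiece, were well above background on 16 of 16 arrays, with 0 arrays at the floor and 0 saturated spots. The brightest probe stands for the miRNA. Its processed signal ran from 365 to 4060 for miR-29a, from 48.3 to 707 for miR-29b and from 105 to 1297 for miR-29c. The spots of 1 array varied by a median coefficient of variation of 4.89% for miR-29a, 4.38% for miR-29b and 5.38% for miR-29c. Feature Extraction's own error of the total signal was 7.1% to 12.2% over the 3 members. The skeletal muscle markers miR-1, miR-133a, miR-133b, miR-206 and miR-499 were all measured and summed to 46.7 to 79.8 times the percentile over all arrays, while 5 of 5 epithelial markers and the liver marker miR-122 were well above background on 0 arrays.

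All 3 members were higher in old than in young EDL. MiR-29b rose 2.12-fold, miR-29a 1.53-fold and miR-29c 1.5-fold, and in this comparison 12 of 114 tested miRNAs (10.5%) rose and 2 (1.75%) fell. The median over the members was a log2 difference of 0.61, against 0 over all 114 tested miRNAs. Some of the 114, unlike the members, lay at the floor on part or all of the arrays. Besides each member, 70 others stayed above it on all 16 arrays. The shares of 10.5% and 1.75% therefore include miRNAs less well measured than the members. Over those detected on all 16 arrays, as the members were, the median was 0.047.

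MiR-29b, the member made from both clusters, read -2.70, -2.86, -2.80 and -2.17 in young EDL 7, 8, 9 and 10. It read -1.57, -1.28, -1.92 and -1.44 in old EDL 1, 2, 3 and 4. Every old array lay above every young array, with young EDL 10 the highest of its group and old EDL 3 the lowest of its own. The group means were -2.64 ± 0.31 and -1.55 ± 0.27 (SD, n = 4 each), a log2 difference of 1.08 (limma SE 0.19, 95% confidence interval 0.68 to 1.48, limma adjusted p = 0.00196). This was the third largest rise among the 114 miRNAs, and its p-value ranked 4 of 114.

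MiR-29a, from the chromosome 4 cluster, read 0.41, 0.33, 0.084 and 0.60 in young EDL 7 to 10 and 0.97, 1.07, 0.68 and 1.15 in old EDL 1 to 4. Again no young array reached an old one, although young EDL 10 came within reach of old EDL 3. The means were 0.36 ± 0.22 and 0.97 ± 0.20 (SD, n = 4 each), a log2 difference of 0.61 (SE 0.11, interval 0.36 to 0.86, limma adjusted p = 0.00342). Old EDL lay wholly above young EDL for 10 of the 114 tested miRNAs (8.77%).

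MiR-29c, from the chromosome 13 cluster, read -1.35, -1.36, -1.50 and -0.81 in young EDL 7 to 10. In old EDL 1 to 4 it read -0.60, -0.40, -0.96 and -0.71. Here the groups overlapped, because young EDL 10 lay above old EDL 3. The means were -1.25 ± 0.31 and -0.67 ± 0.23 (SD, n = 4 each), a log2 difference of 0.59 (SE 0.16, interval 0.25 to 0.93, limma adjusted p = 0.0243).

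**Figure D1:**
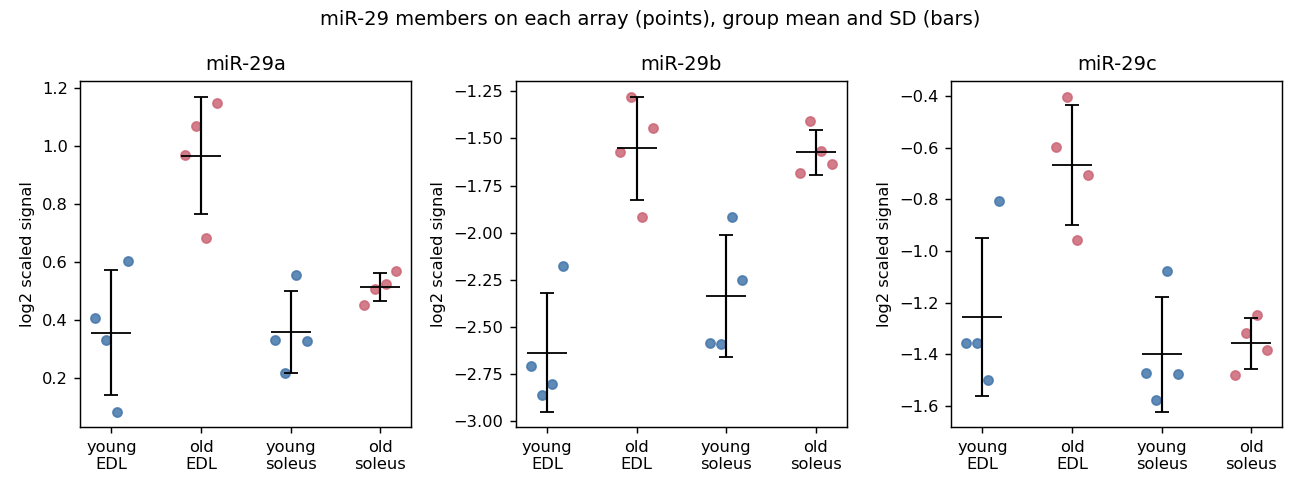
Log2 scaled signal of miR-29a, miR-29b and miR-29c on each array (points) in the 4 groups of 4, with the group mean (horizontal line) and SD (bars); the vertical axes differ between panels. Old EDL lies above young EDL for each member, without overlap for miR-29a and miR-29b, and old soleus lies apart from young soleus for miR-29b, with means of -1.57 and -2.34.

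Taking the EDL arrays by slide row, each of the 4 rows held 1 old and 1 young array, and old was above young in every row for each member. For miR-29a and miR-29b this follows from the groups not overlapping and adds nothing to it. Slide column and age coincide in every row. How many other tested miRNAs show the same order in all rows was not computed. The old minus young differences in rows 1 to 4 were 1.13, 1.58, 0.88 and 0.73 for miR-29b. For miR-29a they were 0.56, 0.74, 0.60 and 0.55, the narrowest spread of the 3. MiR-29c ranged most in proportion, with 0.76, 0.95, 0.54 and 0.0998.

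The miR-29c call in EDL was lost under more settings than the other 2. It ended without any of 6 arrays, at 0.55 without young EDL 7, 0.55 without young EDL 8, 0.51 without young EDL 9, 0.57 without old EDL 1, 0.50 without old EDL 2 and 0.60 without old EDL 4, with limma adjusted p between 0.0634 and 0.0815. It was also lost with only the 8 EDL arrays in the fit (adjusted p = 0.131) or with slide row as a block (adjusted p = 0.165), while miR-29a and miR-29b stayed past the threshold in both. No single array's removal ended the calls of miR-29a or miR-29b. All 3 calls were lost, with positive differences, when arrays were scaled to the percentile over all probes (0.30 for miR-29a, 0.77 for miR-29b and 0.28 for miR-29c), left unscaled (0.88, 1.35 and 0.85 in the same order) or background-corrected with normexp (0.58, 0.35 and 0.22).

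Marker miRNAs of cell types were read beside these values. The summed skeletal muscle markers were 46.7 to 59.8 times the percentile in young and 54.0 to 60.8 in old EDL, which overlap, and 1 of the 5 rose. Smooth muscle markers (miR-143 and miR-145) overlapped, at 0.621 to 0.836 and 0.641 to 0.849. The 1 tested neural marker overlapped too, at 0.0855 to 0.128 and 0.0922 to 0.126. Summed over its list of 5, the fibroblast and mesenchyme markers (miR-199a-5p, miR-199a-3p, miR-214, miR-140 and miR-140*) lay at 0.430 to 0.648 times the percentile in young EDL and 0.408 to 0.581 in old EDL, which overlap. Of the 5, miR-140*, at the floor on 1 array, rose, while the median log2 difference of the 5 was -0.145. Leukocyte markers, of which 2 of the 4 on the array were tested, summed to 0.254 to 0.283 in young and 0.283 to 0.341 in old EDL, and neither passed the test. Endothelial markers (miR-126 and miR-126*) overlapped, at 0.477 to 0.658 and 0.502 to 0.711. The erythroid marker miR-451, 1 of 2 tested, lay at 0.0339 (the floor) to 0.0356 in young EDL and at 0.0339 to 0.243 in old EDL (log2 difference 1.19, limma adjusted p = 0.256). In whole muscle, fewer cells of a type and less RNA per cell cannot be told apart, and the part of cell makeup in the miR-29 values was not tested.

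In soleus 1 member, miR-29b, was higher in old than in young rats, by 1.7-fold, and neither miR-29a nor miR-29c passed the test. In this comparison 2 of 114 miRNAs (1.75%) rose and 2 (1.75%) fell, and miR-29b had the second largest log2 difference of all tested miRNAs. These shares again include miRNAs at the floor, and more miRNAs passed when the test was limited to those detected on all 16 arrays. The median over the members was 0.16, against 0 over all tested miRNAs and -0.077 over those detected on all 16 arrays.

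MiR-29b read -2.59, -2.59, -1.92 and -2.25 in young soleus 7, 8, 9 and 10, and -1.68, -1.41, -1.57 and -1.64 in old soleus 1, 2, 3 and 4. All old arrays lay above all young arrays, and young soleus 9 came closest; old soleus lay wholly above young soleus for 10 of the 114 tested miRNAs (8.77%). The means were -2.34 ± 0.32 and -1.57 ± 0.12 (SD, n = 4 each), a log2 difference of 0.76 (SE 0.19, interval 0.36 to 1.17, limma adjusted p = 0.0384).

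For miR-29a the young soleus values were 0.33, 0.22, 0.55 and 0.33 and the old soleus values 0.45, 0.51, 0.53 and 0.57, in the same array order. Young soleus 9 lay among the old arrays, and the other 3 young arrays lay below all of them. The log2 difference was 0.16 (interval -0.092 to 0.41, limma adjusted p = 0.43), from means of 0.36 ± 0.14 and 0.51 ± 0.049 (SD, n = 4 each). MiR-29c read -1.47, -1.58, -1.08 and -1.48 in young soleus against -1.48, -1.32, -1.25 and -1.38 in old soleus, so the groups overlapped fully, with a log2 difference of 0.044 (interval -0.30 to 0.38, limma adjusted p = 1).

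The miR-29b call in soleus was lost without any of 9 arrays. These were young EDL 7, old EDL 1 and old EDL 4, which enter through the shared spread and leave the difference at 0.76. The others were young soleus 8 (0.68) and 10 (0.79) and old soleus 1 to 4 (0.80, 0.71, 0.76 and 0.78), with limma adjusted p between 0.0554 and 0.0937 over the 9. It was also lost with the other miR-29b probe (0.73, adjusted p = 0.055), with a floor 2 times higher (0.76, adjusted p = 0.0559) and with the 8 soleus arrays alone (0.76, adjusted p = 0.0529). The difference was positive in all 17 settings tried, from 0.39 to 0.94, and 9 of the 17 passed the threshold.

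Beside the soleus values, the summed fibroblast and mesenchyme markers were 0.297 to 0.376 in young and 0.395 to 0.481 in old soleus, without overlap, and 1 of the 5 (miR-214) rose. The summed skeletal muscle markers were 68.1 to 79.8 in young and 54.4 to 64.4 in old soleus, also without overlap, and 0 of the 5 passed the test. The 1 tested neural marker, miR-128, lay at 0.139 to 0.160 in young and 0.0966 to 0.111 in old soleus (log2 difference -0.46, limma adjusted p = 0.0636). The 1 tested erythroid marker, miR-451, was at the floor in young soleus and reached 0.122 in old soleus (0.73, limma adjusted p = 0.486), and endothelial markers overlapped (0.435 to 0.523 and 0.412 to 0.492). The part of these markers in the miR-29b difference was not tested.

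The estimated age effect of each member was smaller in soleus than in EDL, but none of these differences passed the threshold. For soleus minus EDL, 1 of 114 miRNAs (0.877%) did, a skeletal muscle marker. The difference was -0.46 for miR-29a (interval -0.81 to -0.10, limma adjusted p = 0.246), -0.32 for miR-29b (interval -0.89 to 0.25, adjusted p = 0.588) and -0.54 for miR-29c (interval -1.02 to -0.064, adjusted p = 0.373). An age effect that passed in EDL and not in soleus, as for miR-29a and miR-29c, is therefore not shown to differ between the muscles under this scaling. When arrays were scaled to the labelling spike-ins, the difference passed for miR-29a (-0.71, limma adjusted p = 0.0112) and miR-29c (-0.80, adjusted p = 0.0164). The median over all tested miRNAs was -0.064.

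**Figure D2:**
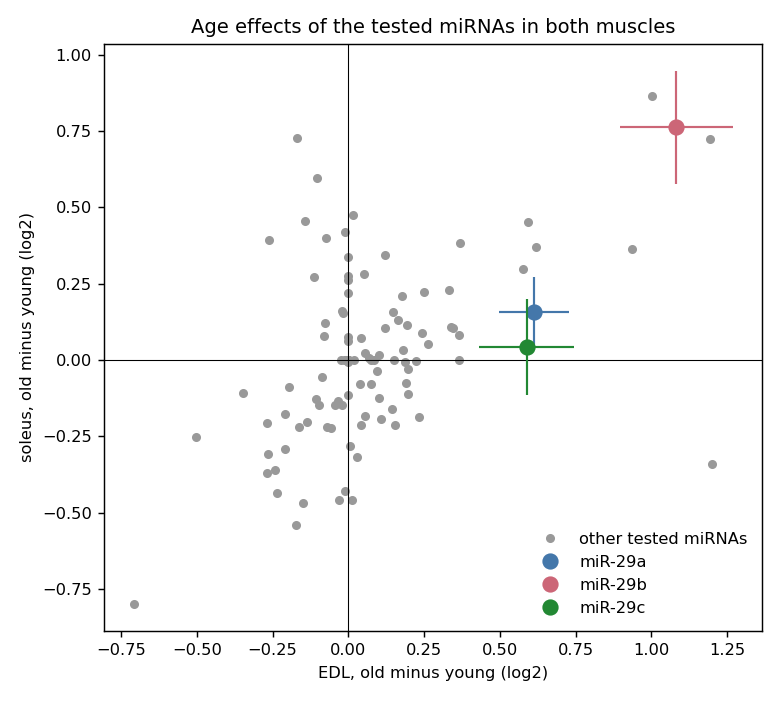
Old minus young log2 difference in EDL (horizontal axis) and soleus (vertical axis) for the 114 tested miRNAs, with the 3 members coloured and bars of 1 limma SE. MiR-29b lies at 1.08 and 0.76, while miR-29a and miR-29c lie at 0.61 and 0.59 in EDL. In soleus they lie at 0.16 and 0.044, neither past the threshold.

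Between the muscles of young rats no member passed the test. The soleus minus EDL difference was 0.0016 for miR-29a (interval -0.25 to 0.25, adjusted p = 1), 0.30 for miR-29b (interval -0.10 to 0.70, adjusted p = 0.226) and -0.15 for miR-29c (interval -0.49 to 0.19, adjusted p = 0.533). The array values overlapped for all 3, whereas 35.1% of tested miRNAs showed no overlap in this comparison. Of the 114, 22 (19.3%) were higher and 27 (23.7%) lower in young soleus. Direction and call changed with the scaling: all 3 members passed as higher in soleus when arrays were scaled to the labelling spike-ins (0.61, 0.91 and 0.47 for miR-29a, miR-29b and miR-29c). Without scaling miR-29a (-1.15) and miR-29c (-1.30) passed as lower, and with the percentile over all probes miR-29c did (-1.16).

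In old rats miR-29a and miR-29c were lower in soleus than in EDL and miR-29b was not distinguishable between them. MiR-29c fell by 0.69 on the log2 scale (SE 0.16, interval -1.03 to -0.35, limma adjusted p = 0.0025) and miR-29a by 0.45 (SE 0.11, interval -0.70 to -0.21, limma adjusted p = 0.00492). For both, every old soleus array lay below every old EDL array. The muscles differ widely by these measures: 37 of 114 miRNAs (32.5%) were lower in old soleus, 24 (21.1%) were higher, and for 30.7% old soleus lay wholly below old EDL. The median difference was -0.046 over all tested miRNAs and -0.165 over those detected on all 16 arrays. With Feature Extraction's total gene signal miR-29a stood at -0.285 against a median of -0.295. Under that summary it did not stand apart from the tested miRNAs as a whole. For miR-29b the difference was -0.021 (interval -0.42 to 0.38, adjusted p = 1), and its old EDL and old soleus arrays overlapped.

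The 2 calls in old rats held without any 1 array, from -0.55 to -0.39 for miR-29a and from -0.79 to -0.60 for miR-29c, and both values stayed negative in all 17 settings. Both calls ended when array brightness entered the model as a covariate (-0.056 for miR-29a and -0.29 for miR-29c) and when arrays were scaled to the labelling spike-ins (-0.098 and -0.33), and normexp (-0.47 and -0.46) ended them too. Beside these values, summed smooth muscle markers (miR-143 and miR-145) were 0.410 to 0.528 in old soleus against 0.641 to 0.849 in old EDL. Endothelial markers were 0.412 to 0.492 against 0.502 to 0.711. Skeletal muscle, fibroblast and mesenchyme, leukocyte, erythroid and neural marker sums overlapped between the old muscles. Smooth muscle markers also lay apart in young rats, at 0.473 to 0.597 in soleus and 0.621 to 0.836 in EDL. The part of any of these markers in the difference was not tested.

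Ordered by mean level, miR-29a ran from young EDL (0.36) and young soleus (0.36) through old soleus (0.51) to old EDL (0.97), and among these neighbours old soleus and old EDL alone differed past the threshold. MiR-29b ran from young EDL (-2.64) through young soleus (-2.34) and old soleus (-1.57) to old EDL (-1.55), where the step from young to old soleus alone passed. MiR-29c ran from young soleus (-1.40) through old soleus (-1.36) and young EDL (-1.25) to old EDL (-0.67). There the step from young to old EDL passed, the 2 soleus groups did not differ past the threshold, and old soleus was not contrasted with young EDL.

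The ratio of 2 members on the same array does not depend on how arrays are scaled against each other, and was read for whether the members changed equally. A background left in the signals is not removed by a ratio. Negative-control spots averaged 6.76 to 11.3 in the processed signal, where miR-29b was as low as 48.3 on young soleus 7. MiR-29b gained on both other members with age in both muscles, and the miR-29c to miR-29a ratio did not differ past the threshold in any comparison. Of 12 tests (3 pairs in 4 comparisons) 7 passed after Benjamini-Hochberg adjustment, and all 7 involve miR-29b, so they share its values. In each of the 7 the groups did not overlap. The share of other miRNA pairs whose ratios lay apart was not computed, so this is not shown to be particular to miR-29b. With 4 against 4 arrays a two-sided exact permutation test cannot give a p below 0.0286, which is the value of all 7 (adjusted p = 0.049). Because the 7 tie at this value, they passed the adjustment together, and with fewer ties none would have passed.

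In EDL the log2 ratio of miR-29b to miR-29a was -2.99 ± 0.19 in young and -2.52 ± 0.12 in old arrays (SD, n = 4 each). The change of 0.47 took every old array (lowest -2.60) above every young one (highest -2.78). In soleus the same ratio went from -2.69 ± 0.20 to -2.09 ± 0.12, a change of 0.61. The value of such a ratio carries the probes' own brightness and has no meaning as a relative amount, so its change alone is read.

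Against miR-29c, miR-29b gained 0.49 with age in EDL and 0.72 in soleus. The miR-29b to miR-29c ratio was also higher in soleus than in EDL, by 0.45 in young rats and 0.67 in old rats. The miR-29b to miR-29a ratio was higher in soleus by 0.43 in old rats, and by 0.30 in young rats, where the groups overlapped (exact permutation p = 0.143, adjusted p = 0.187).

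MiR-29a and miR-29c, from different chromosomes, were not distinguishable in their changes. Binding of either by the other's probe was not tested, and their ratio is uncertain to that extent. The miR-29c to miR-29a ratio differed by -0.024 between young and old EDL (exact permutation p = 0.83), by -0.11 between young and old soleus (p = 0.171), by -0.15 between the muscles of young rats (p = 0.171) and by -0.24 between those of old rats (p = 0.0857, adjusted p = 0.129). With this number of arrays a small difference could not have been detected.

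Normexp background correction changed the ratio results. Under it the miR-29b to miR-29a change in EDL was -0.23 (exact permutation, adjusted p = 1) and none of the 7 passed. Normexp left the negative-control spots at a mean of 535 intensity units on young EDL 9 and 353 on old EDL 4 and at 76.0 to 92.5 on the other arrays, against 6.76 to 11.3 in the processed signal, and miR-29b itself ran from 48.3 to 707 in the processed signal. Under normexp the miR-29b to miR-29a ratio was -0.20 on young EDL 9 and -2.78 to -2.49 on the other young EDL arrays, and without young EDL 9, an alternative added after seeing the data, its change in EDL was 0.38 and that of miR-29b to miR-29c 0.41. When each array's negative-control mean was subtracted after normexp, an alternative chosen after seeing the data, the same change was 0.45, and the 7 changes lay between 0.40 and 0.77 with exact permutation adjusted p of 0.0571 to 0.098.

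**Figure D3:**
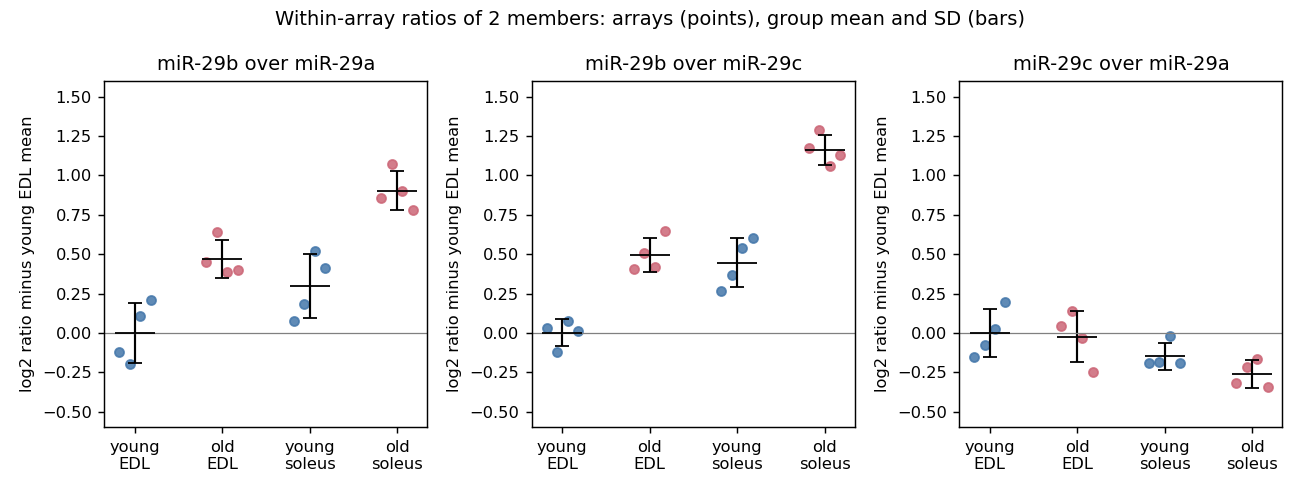
Log2 ratio of 2 members on each array (points), shown as the difference from the young EDL mean of that ratio, with group mean and SD (bars, n = 4). MiR-29b gains on miR-29a and miR-29c with age in both muscles (0.47 and 0.49 in EDL, 0.61 and 0.72 in soleus), while the miR-29c to miR-29a ratio changes by -0.024 in EDL and -0.11 in soleus.

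The passenger strands, the opposite arms of the same hairpins, were mostly not detected. MiR-29a*, miR-29b-1* and miR-29b-2*, with 4 probes each, were well above background on 0 of 16 arrays, and their highest processed signal was 10.8. MiR-29c*, the partner of miR-29c at chr13:109099374-109099395, was well above background on 13 of 16 arrays, that is on all 4 arrays of each EDL group, 3 of young soleus and 2 of old soleus.
rno-miR-29c*: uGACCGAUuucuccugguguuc

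MiR-29c* carries another seed, in capitals, and therefore other potential pairing. It read between -4.04 and -3.69 in young EDL, -3.75 and -3.55 in old EDL, -4.30 and -4.13 in young soleus and -4.17 and -3.91 in old soleus. Its age difference was 0.19 in EDL (interval 0.024 to 0.36, limma adjusted p = 0.159) and 0.12 in soleus (interval -0.051 to 0.28, adjusted p = 0.37). The soleus minus EDL difference was -0.34 in young rats (limma adjusted p = 0.00329) and -0.42 in old rats (limma adjusted p = 0.00058). It turned to 0.27 in young rats when arrays were scaled to the labelling spike-ins, and to 0.26 in old rats under normexp.

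Likeness of profiles was measured over all 16 arrays as the root mean square difference of log2 levels after centring each miRNA on its own mean, among 70 other miRNAs above the floor throughout. MiR-29a and miR-29c, on different chromosomes, were each other's nearest (0.151). Their sequences differ by 1 base, and how far the probe of either binds the other was not tested, so this likeness is uncertain. MiR-29b, though it shares a cluster with each of them, stood further off. Its nearest were miR-29a (0.356), miR-352 (0.414) and miR-29c (0.427), and it ranked 32 of 70 from miR-29a and 48 of 70 from miR-29c. This distance also grows with the size of a miRNA's own changes. About its own mean miR-29b had a root mean square of 0.527, against 0.289 for miR-29a and 0.355 for miR-29c. The arrays share their slides and scaling, so these are descriptions. Over 6 other settings the distance of miR-29a and miR-29c ran from 0.140 to 0.335, that of miR-29b and miR-29a from 0.361 to 0.578, and that of miR-29b and miR-29c from 0.372 to 0.442, with the highest of the first 2 under normexp.

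Besides each other, the miRNAs nearest to miR-29a were miR-10a-5p (0.152) and let-7f (0.169), and those nearest to miR-29c were miR-26b (0.185) and miR-150 (0.214). Of these named neighbours outside the family miR-352 alone passed the test in EDL, with an old minus young difference of 0.35 (limma adjusted p = 0.0243). The others had EDL differences of 0.34 for miR-10a-5p (adjusted p = 0.164), 0.22 for let-7f (0.212), 0.20 for miR-26b (0.379) and 0.23 for miR-150 (0.173). Let-7d, at rank 5 from miR-29b (0.439), also passed in EDL (0.26, limma adjusted p = 0.00432).

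Other miRNAs linked to extracellular matrix and fibrosis were read as a list of 30, of which 29 were on the array and 22 were tested. In EDL 4 of the 22 rose with age and 0 fell, with a median difference of 0.040, beside 10.5% rising and 1.75% falling over all tested miRNAs. The 4 were miR-21, linked to fibroblast activation (1.0, limma adjusted p = 0.0218), miR-34a, a target of p53 (0.94, adjusted p = 0.000364), miR-140*, from a cartilage and mesenchyme locus (0.62, adjusted p = 0.00735), and let-7d (0.26, adjusted p = 0.00432). The next by p were miR-30c (-0.24, adjusted p = 0.19), miR-26a (0.19, adjusted p = 0.256) and miR-24 (0.16, adjusted p = 0.368).

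MiR-21 lost its call without young EDL 7 (0.99), young EDL 8 (1.01), young EDL 9 (0.90), old EDL 1 (0.99), old EDL 2 (0.93) or old EDL 4 (0.90). MiR-34a lay at the floor on 4 arrays, and with a floor 2 times higher its difference was 0.056 and that of miR-140* 0.016. Under normexp both of these reversed, to -0.50 and -0.51, and let-7d reversed to -0.045 with scaling to the percentile over all probes.

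In soleus 1 of the 22 rose, miR-214, a fibroblast-enriched miRNA (0.73, limma adjusted p = 0.0384), and 1 fell, miR-30c (-0.44, adjusted p = 0.0384), with a median of -0.0026, beside 1.75% in each direction over all tested miRNAs. The next by p were miR-21 (0.86, adjusted p = 0.0636), miR-30e (-0.54, adjusted p = 0.0636) and miR-34a (0.36, adjusted p = 0.102), of which miR-21 and miR-34a passed without old EDL 3 (0.86 and 0.36) and miR-30e without young EDL 10 (-0.54) or young soleus 7 (-0.63). MiR-214 lost its call without young EDL 7 (0.73), old EDL 1 (0.73), young soleus 8 (0.71) or 9 (0.66), or old soleus 1 (0.74), 3 (0.75) or 4 (0.61). MiR-30c lost its call without old EDL 1 (-0.44), young soleus 8 (-0.47), 9 (-0.38) or 10 (-0.43), or any of old soleus 1 to 4 (-0.37, -0.44, -0.47 and -0.46).

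No miRNA of the list passed for the difference of the age effects, where the 3 smallest p-values belonged to miR-214 (0.90, limma adjusted p = 0.159), miR-34a (-0.57, adjusted p = 0.244) and miR-199a-3p (0.66, adjusted p = 0.244) and the median was -0.15. Of these miR-34a passed without old EDL 3 (-0.70) or young soleus 7 (-0.67). Between the muscles of young rats 3 of the 22 were higher and 10 lower in soleus (median -0.18), beside 19.3% higher and 23.7% lower and a median of 0 over all tested miRNAs. In old rats 1 was higher and 11 lower (median -0.26), beside 21.1%, 32.5% and -0.046.

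**Figure D4:**
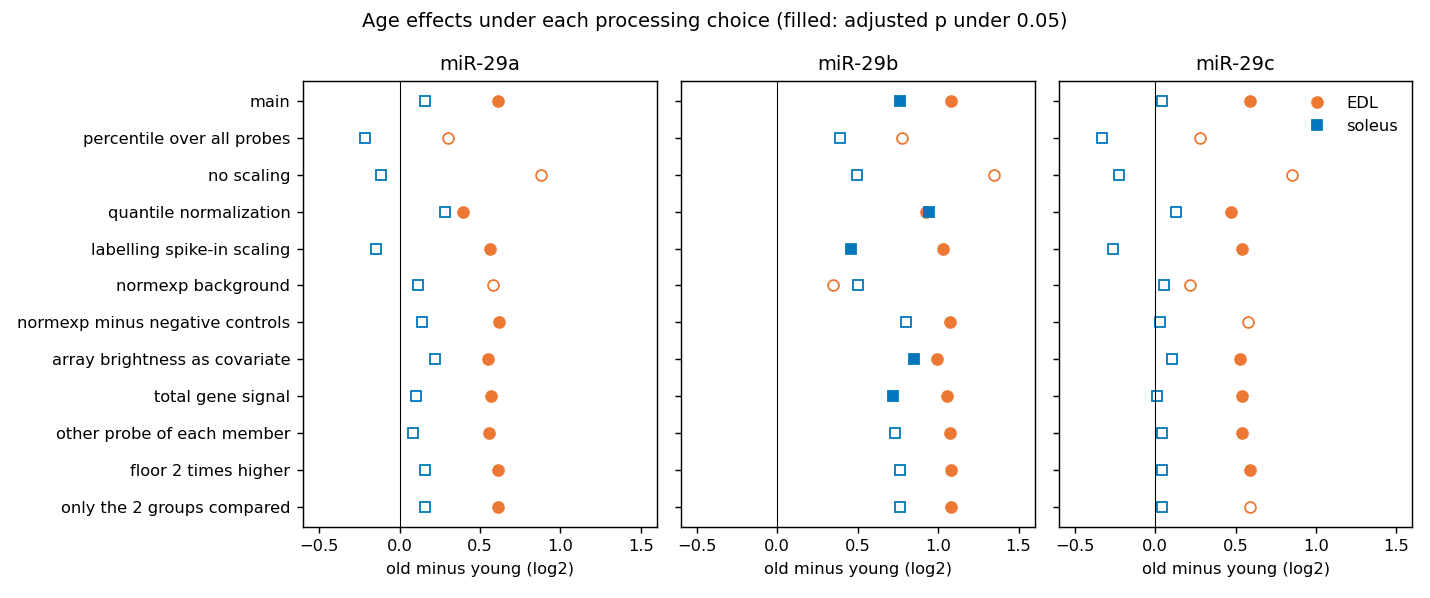
Old minus young log2 difference of each member in EDL (circles) and soleus (squares) under the reported setting (main) and 11 other processing settings; filled symbols passed an adjusted p of 0.05. In EDL all 3 members stay above 0 in every setting shown, and in soleus miR-29b does (0.39 to 0.94), while miR-29a and miR-29c fall on both sides of 0.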

How the data were processed

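The 16 RNA samples were column-purified and Cy3-labelled, per the labels' protocols. The authors deposited spot intensity (processed signal, with the scanner software's background treatment) from Agilent Feature Extraction, version 10.7.3.1 per the file headers and 10.7 per the submitters' processing notes. The array's probe design and its genome coordinates were not used.

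Control spots and outlier-flagged spots (3.03% of 13540 non-control spots per array) were left out and the 5 to 20 spots per probe averaged. A probe was well above background where more than 0.5 of its spots were flagged so. Signals were divided by the array's 75th percentile over 95 probes, raised to a floor of 0.0339 (log2 -4.88) and converted to log2. Tests covered the 114 of 677 miRNAs whose brightest probe was detected in that sense on at least 4 arrays. All 4 groups entered 1 limma model (limma 3.58.1, R 4.3.3) without covariates, two-sided, with Benjamini-Hochberg adjustment over 114 at 0.05. Adjusted p-values are limma's unless a permutation test is named. Within-array ratios used two-sided exact permutation tests, adjusted over 12 (Python 3.11.15, scipy 1.17.1). The model was tested on simulated data.

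Groups came from the labels. EDL and soleus arrays of the same number correlated at -0.56 to 0.58 in their deviations from group means (4 of 8 over 0.1), so numbers were not taken to pair samples.

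The members, lists and tests were chosen with earlier results of these data known. Named miRNAs are the members, their passenger strands, the matrix-linked miRNAs past the threshold or with the 3 smallest p otherwise in the age comparisons and their difference (between muscles, counts and medians alone are given), and the 3 nearest in likeness to each member. Alternatives changed the scaling, background correction, probe summary, filter, floor, blocks or arrays fitted, or left out each array; 3 were added after seeing the data.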

Additional observations from a re-analysis of the deposited data

How the results depend on the processing

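Values are log2 differences, and numbers of miRNAs are those past limma's adjusted threshold unless stated. Leaving out each array gave 7 to 16 miRNAs for age in EDL, 1 to 26 for age in soleus (26 without young soleus 7), 1 to 9 for the difference of the age effects (9 without young soleus 7), 40 to 54 between young muscles and 52 to 64 between old muscles. Over the same omissions the age difference ranged from 0.50 to 0.74 for miR-29c in EDL, and in soleus from 0.68 to 0.90 for miR-29b and from -0.015 to 0.15 for miR-29c. The muscle difference ranged from -0.089 to 0.084 for miR-29a and from -0.25 to 0.0032 for miR-29c in young rats, and from -0.14 to 0.071 for miR-29b in old rats. Ratio tests without 1 array cannot give a p below 0.0571 and were read as values: the 7 changes past the threshold kept their sign, and the miR-29c to miR-29a change in EDL ranged from -0.078 to 0.0497.

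With scaling to the percentile over all probes, 0 miRNAs passed for either age comparison or their difference (2, 1 and 1 at an unadjusted p under 0.05), and without scaling also 0 (8, 2 and 3). Under normexp 1 miRNA passed for age in EDL and 0 in soleus (1 at an unadjusted p under 0.05), with 5 and 7 for the young and old muscles. In EDL, for miR-29a, miR-29b and miR-29c, the percentile over all probes gave 0.30, 0.77 and 0.28, no scaling 0.88, 1.35 and 0.85, and normexp 0.58, 0.35 and 0.22. These 3 settings moved the median of all tested miRNAs in EDL by -0.23, 0.28 and -0.50; relative to it the members stood at 0.54, 1.01 and 0.51, at 0.60, 1.07 and 0.57, and at 1.08, 0.85 and 0.72. MiR-29c also lost its EDL call after normexp minus negative controls (0.58), and with EDL arrays alone, with or without slide row as a block (0.59).

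In soleus miR-29b lost its call with the percentile over all probes (0.39), no scaling (0.49), normexp (0.50), normexp minus negative controls (0.80), the mean over probes (0.75), the other probe (0.73), a higher floor (0.76) and soleus arrays alone (0.76). With the percentile over all probes, no scaling and spike-in scaling, miR-29a there turned to -0.22, -0.11 and -0.15, and miR-29c to -0.33, -0.23 and -0.26. The difference of the age effects passed under spike-in scaling for miR-29a (-0.71) and miR-29c (-0.80), and for miR-29b turned to 0.15 under normexp and 0.020 under quantile normalization.

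Between young muscles, miR-29a, miR-29b and miR-29c gave 0.61, 0.91 and 0.47 with spike-in scaling (all 3 past the threshold), -1.02, -0.72 and -1.16 with the percentile over all probes (miR-29c past it), and -1.15, -0.86 and -1.30 without scaling (miR-29a and miR-29c past it). MiR-29a also turned to -0.058 (quantile), -0.0052 (mean over probes) and -0.012 (other probe). MiR-29b passed with brightness as a covariate (0.68) and the total gene signal (0.48) and gave -0.014 under normexp, and miR-29c gave 0.13 and 0.0097 under the first 2 of these. Between old muscles, miR-29a and miR-29c lost their calls with brightness as a covariate (-0.056 and -0.29), spike-in scaling (-0.098 and -0.33) and normexp (-0.47 and -0.46), and miR-29a with quantile normalization (-0.17). MiR-29b turned to 0.54 with brightness as a covariate, 0.33 with spike-in scaling, 0.30 with quantile normalization, 0.14 under normexp and 0.15 with the total gene signal, and passed without scaling (-1.71).

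For the ratios, normexp turned miR-29b over miR-29a to -0.23 in EDL (0.38 without young EDL 9) and -0.017 between young muscles, and miR-29c over miR-29a to 0.011 between old muscles. It left miR-29b over miR-29a at 0.39 in soleus and 0.61 between old muscles, and miR-29b over miR-29c at 0.13 in EDL, 0.45 in soleus, 0.28 between young and 0.60 between old muscles, none past the threshold. After normexp minus negative controls the 7 ratio changes were 0.45, 0.66 and 0.45 (miR-29b over miR-29a in EDL, soleus and old muscles) and 0.49, 0.77, 0.40 and 0.69 (over miR-29c in EDL, soleus, young and old muscles), again none past it.

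The numbers of miRNAs for age in EDL and in soleus were 22 and 12 with quantile normalization, 8 and 45 with spike-in scaling, 5 and 2 with normexp minus negative controls, 6 and 10 with the total gene signal, and 9 and 8 with miRNAs detected on all 16 arrays (39 between old muscles). For age in soleus they were 16 with brightness as a covariate, 1 with the mean over probes, 8 with the lower and 1 with the higher floor, and 10 without miRNAs at the floor throughout. The difference of the age effects held 31 with spike-in scaling, 3 with quantile normalization, and 2 with brightness as a covariate or either other floor. Brightness as a covariate left 32 between young and 24 between old muscles, where no scaling gave 93. The unfiltered fit left out miRNAs at the floor on all 16 arrays.

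Other reversals concern miR-29c* (age in EDL -0.12 with the percentile over all probes and -0.48 under normexp; in soleus -0.20, -0.28, -0.19 and -0.040 with the percentile over all probes, no scaling, spike-in scaling and normexp minus negative controls; difference of the age effects 0.65 under normexp and 0.36 with the total gene signal; young muscles 0.27 with spike-in scaling; old muscles 0.26 under normexp). Its muscle calls were also lost with the total gene signal (-0.95 in young and -0.59 in old rats) and with brightness as a covariate (-0.28 and -0.32), in young rats under normexp (-0.40) and the higher floor (-0.074), and in old rats with spike-in scaling (-0.061). In EDL, with the percentile over all probes, let-7d, miR-26a and miR-24 gave -0.045, -0.12 and -0.15, and under normexp miR-34a, miR-140* and miR-24 gave -0.50, -0.51 and -0.014. MiR-26a gave -0.34 with quantile normalization and miR-30c 0.030 without scaling. MiR-34a gave -0.16 in soleus without scaling and 0.74 for the difference of the age effects under normexp. The cause of these changes was not tested.

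Same-numbered EDL and soleus arrays were not taken as paired (2 of 8 correlated best with their own number). A replicate block changed no member's call, with 2 miRNAs for the difference of the age effects against 1. Sign flips of same-numbered pairs, which cannot give a p below 0.125, left the muscle ratio changes at 0.43 (miR-29b over miR-29a, old) and 0.45 and 0.67 (over miR-29c, young and old), not past the threshold.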
